A study of Homo sapiens with 6 samples.

Results

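The insulin-like growth factor axis was followed through 10 genes chosen by symbol, namely the ligand gene IGF2, the receptor genes IGF1R, INSR and IGF2R, and the binding protein genes IGFBP2, IGFBP3, IGFBP4, IGFBP5, IGFBP6 and IGFBP7. Of these, 9 had at least 1 probe set assigned to that gene alone, out of 19775 genes with such a probe set on the array. They were read by 27 of the 41091 probe sets with a single gene symbol. The 3 probe sets that carry IGF2 list a second gene symbol as well, so IGF2 has no value here.

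RNA came from U251, a human glioma cell line, in 2 stable lines that were each infected with viral particles and selected with puromycin. One line overexpressed PARK2, the gene for the ubiquitin ligase parkin, and the control line overexpressed GFP, and each was hybridised to 3 Affymetrix arrays. Arrays within a group are labelled as biological replicates, with nothing on whether separate infections or cultures stood behind them. A p-value here therefore weighs a difference against array-to-array spread that may be technical. The PARK2 transcript itself is left out, and group labels are taken as given.

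Insulin-like growth factors are secreted hormones that act through IGF1R, a receptor tyrosine kinase closely related to the insulin receptor INSR, and drive growth and survival through the PI3K-AKT and MAPK cascades. IGF2R, which is also the cation-independent mannose 6-phosphate receptor, has no kinase activity and takes up IGF2 for breakdown in lysosomes. The IGFBP proteins hold the growth factors outside the cell and limit or prolong their action, and proteases that cut IGFBPs release the ligand. In glioma, IGF1R signalling and raised IGFBP2 and IGFBP3 have long been studied in connection with growth and invasion.

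IGF1R, IGFBP2 and IGFBP6 transcripts fell in PARK2 cells, while IGFBP3 and IGFBP5 rose. Of 26 probe sets of these genes that passed the filter on dim values, 5 were higher and 5 lower at a limma adjusted p under 0.05, together 10. Over all 26603 probe sets tested, 20.4% were past that threshold, 9.1% higher and 11.3% lower in PARK2 cells. The median log2 difference of the 26 was 0.05, against -0.006 over all probe sets tested, and the median absolute difference was 0.37 against 0.245. In 12 of the 26 the groups did not overlap, with PARK2 above in 6 and below in 6, where 35.1% of all probe sets did not overlap. Intensities are linear values as deposited, differences are PARK2 minus control on the log2(intensity + 16) scale, where 16 is a pseudocount, and errors of means are SDs over 3 arrays.

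**Figure D1:**
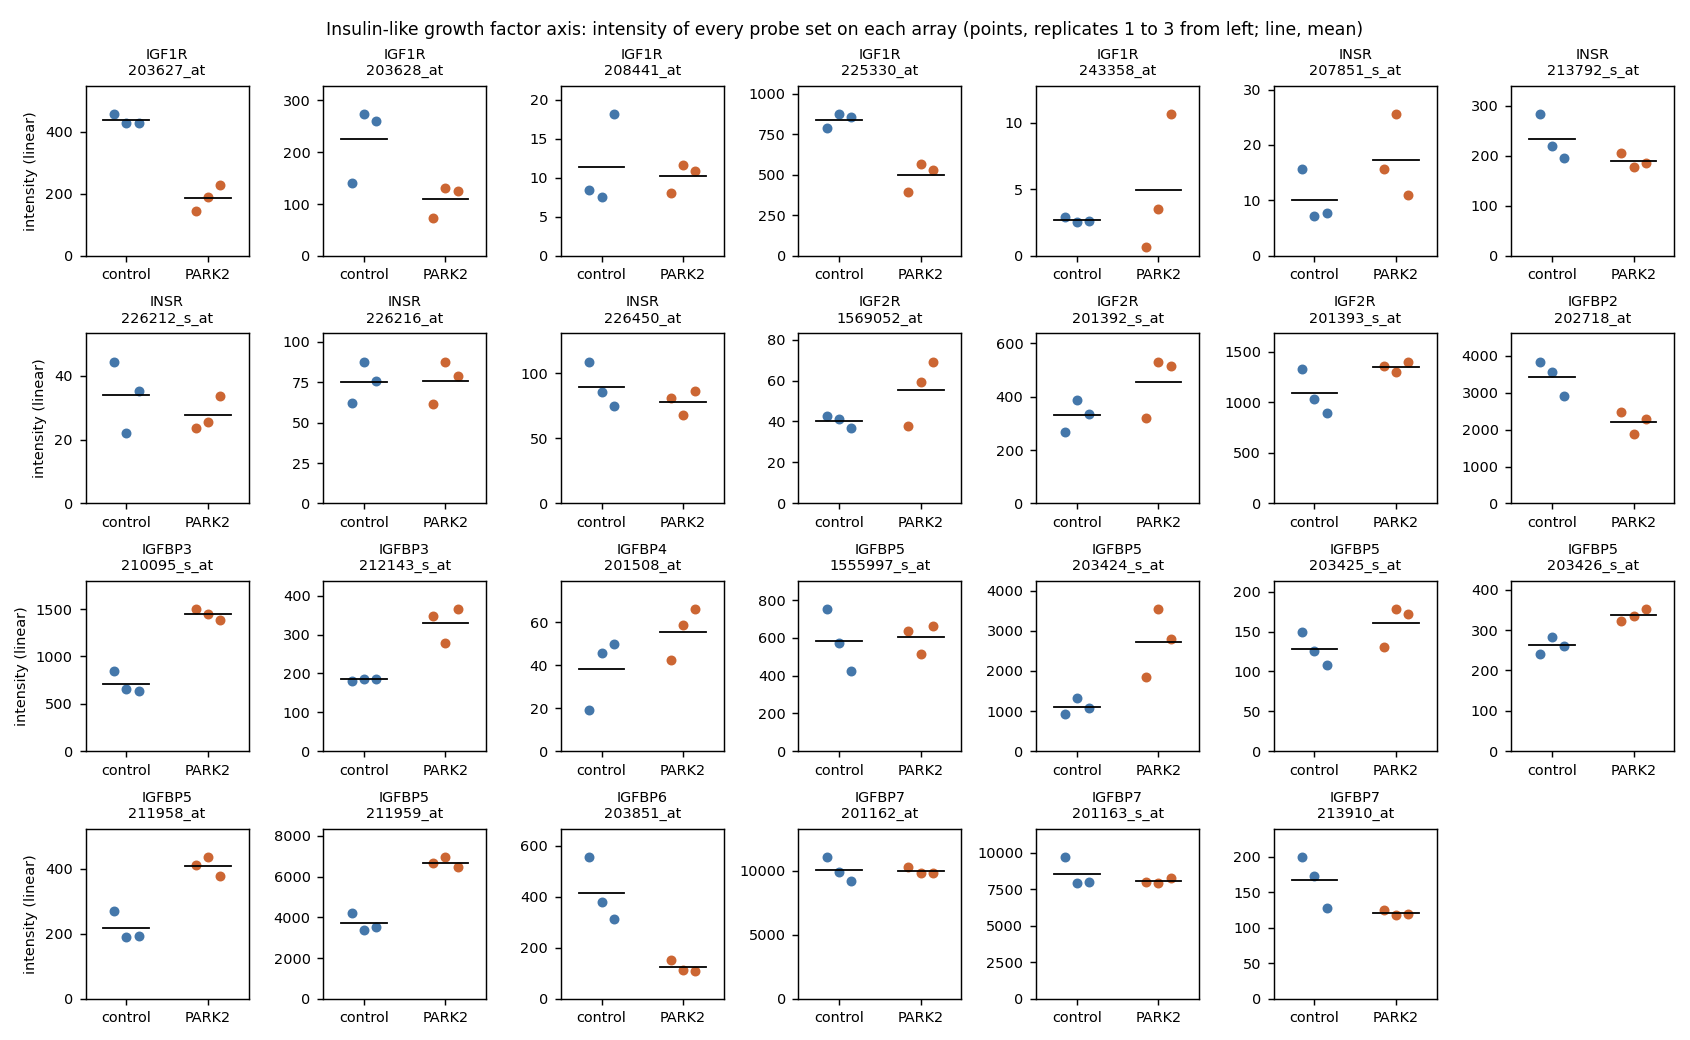
Each panel plots the linear intensity of 1 probe set on the 3 control arrays (blue) and the 3 PARK2 arrays (orange), replicates 1 to 3 from left to right, with a black line at the group mean and the y axis starting at 0. PARK2 points lie below all control points in 3 of the 5 IGF1R panels and in the IGFBP2 and IGFBP6 panels, and above them in both IGFBP3 panels and 4 of the 6 IGFBP5 panels.

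The upstream sequence is shown for 4 of the 5 members that moved, IGF1R and IGFBP6, which fell, and IGFBP3 and IGFBP5, which rose. IGFBP2, which fell too, has 3 start sites in the table and its windows are not shown, with 1 GC box in each of 2 of them and none of the motifs below in the other. Each line gives the 250 bases before the start of the gene, from RefSeq on GRCh38.p14, written 5′ to 3′ on the strand of the gene. Capitals mark matches, on either strand, to the GC box GGGCGG, the TATA box TATAAA, the forkhead core GTAAACA and the E box CACGTG.
IGF1R, chr15:98648289-98648538, plus strand: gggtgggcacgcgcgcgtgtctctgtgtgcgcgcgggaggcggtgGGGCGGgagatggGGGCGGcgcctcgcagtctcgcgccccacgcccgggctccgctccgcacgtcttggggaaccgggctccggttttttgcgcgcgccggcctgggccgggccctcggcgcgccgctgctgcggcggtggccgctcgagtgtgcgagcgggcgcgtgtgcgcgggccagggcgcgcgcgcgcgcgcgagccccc
IGFBP6, chr12:53097417-53097666, plus strand: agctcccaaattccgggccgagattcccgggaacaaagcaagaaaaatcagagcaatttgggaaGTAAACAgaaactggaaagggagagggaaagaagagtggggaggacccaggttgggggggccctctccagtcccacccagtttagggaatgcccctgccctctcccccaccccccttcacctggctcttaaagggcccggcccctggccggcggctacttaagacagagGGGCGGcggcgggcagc
IGFBP3, chr7:45921273-45921522, minus strand: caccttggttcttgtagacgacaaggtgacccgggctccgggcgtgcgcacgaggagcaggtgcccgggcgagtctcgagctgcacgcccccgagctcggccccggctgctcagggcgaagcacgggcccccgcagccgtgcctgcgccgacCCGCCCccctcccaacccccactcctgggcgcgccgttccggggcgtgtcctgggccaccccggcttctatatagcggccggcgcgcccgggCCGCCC
IGFBP5, chr2:216695550-216695799, minus strand: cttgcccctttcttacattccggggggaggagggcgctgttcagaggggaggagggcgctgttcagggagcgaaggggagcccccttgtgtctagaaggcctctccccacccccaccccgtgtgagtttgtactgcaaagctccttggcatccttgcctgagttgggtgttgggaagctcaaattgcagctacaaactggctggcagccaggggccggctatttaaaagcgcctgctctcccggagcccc

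The 4 windows differ in base composition, with 81.2% G and C before IGF1R, 76% before IGFBP3 and 61.2% before both IGFBP5 and IGFBP6, where the median over all 35116 RefSeq promoters of that length was 58%. IGF1R and IGFBP3 each held 2 GC boxes, IGFBP6 held 1 and IGFBP5 none, and 42.6% of all promoters hold at least 1. The forkhead core, the letters read by FOXO factors among others, stood once before IGFBP6, 180 to 186 bases before the start, and 2.98% of all promoters hold it. Neither the TATA box letters (10.7% of all promoters) nor the E box letters (6.34%) were in these 4 windows. Of the 10 genes, 8 were in the promoter table. A match describes the letters and not a bound site. The GC box did not sort the members that rose from those that fell, since it stood on both sides. The forkhead core stood only before IGFBP6, which fell, and 1 match cannot sort the members.

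Among the receptors, IGF1R, on chromosome 15, was lower in PARK2 cells on 3 of its 4 tested probe sets. Probe set 225330_at read 789, 874 and 857 on the control arrays and 395, 569 and 528 on the PARK2 arrays, in intensity units and in the order of replicates 1 to 3 as in all such lists. The mean went from 840 ± 45.0 (SD, n = 3) to 497 ± 91.1, a log2 difference of -0.75 (SE 0.15, limma's adjusted p 0.00168). Every PARK2 array lay below every control array, and PARK2 replicate 1 was the lowest.

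Probe set 203627_at showed the largest IGF1R difference. It read 457, 430 and 428 in control cells and 144, 191 and 228 in PARK2 cells, which is a log2 difference of -1.18 (SE 0.17, limma's adjusted p 6.1e-05). The control arrays lay close together here and no PARK2 array came near them.

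Probe set 203628_at was lower as well, with a wider spread. It read 142, 274 and 261 in control cells and 72.9, 132 and 125 in PARK2 cells (log2 difference -0.92, SE 0.23, limma's adjusted p 0.00834). Replicate 1 was the lowest array of both groups, and PARK2 arrays lay below all control arrays, though control replicate 1 was only just above PARK2 replicate 2. The call was lost without control replicate 3 (-0.80, adjusted p 0.0534).

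The other IGF1R probe sets lay near the floor. Probe set 208441_at, between 7.53 and 18.2 on all arrays, was at -0.05 (95% interval -0.53 to 0.44, limma's adjusted p 0.926). Probe set 243358_at, between 0.64 and 10.7, did not pass the filter, whose lowest mean was 9.87 intensity units. The difference between the IGF1R probe sets that moved most apart (1.13 on the log2 scale) had an exact two-sided permutation p of 0.10, the smallest that 3 arrays against 3 allow, and 0.15 after adjustment over the 6 genes compared in this way. Each such pair was taken as the extremes of its gene, so these p-values are too favourable. As the mean of its tested probe sets IGF1R was at -0.73 (limma's adjusted p 8.6e-04).

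INSR, the insulin receptor, gave no probe set past the threshold among its 5. Probe set 213792_s_at read 284, 221 and 196 in control cells and 205, 178 and 186 in PARK2 cells. The groups overlapped, and the log2 difference was -0.26 (95% interval -0.62 to 0.09, limma's adjusted p 0.313). The other INSR probe sets ran from -0.18 to 0.34 with intervals that reached from -0.63 to 0.84. A fall as large as that of IGF1R on 225330_at lies outside the interval of each INSR probe set.

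IGF2R was at positive differences on all 3 probe sets, and none passed. Probe set 201393_s_at read 1331, 1035 and 896 in control cells and 1359, 1296 and 1401 in PARK2 cells, a log2 difference of 0.33 (95% interval 0.02 to 0.63, limma's adjusted p 0.129). Control replicate 1 lay among the PARK2 arrays, and without it the difference was 0.48 with an adjusted p of 0.00666. Quantile normalization (0.36, adjusted p 0.01) and trimmed mean scaling (0.35, adjusted p 0.0153) also brought this probe set past the threshold.

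Probe set 201392_s_at was at 0.43 (adjusted p 0.133), and at 0.66 (adjusted p 0.0167) without PARK2 replicate 1. That array read 319, inside the control range of 267 to 389, while the other PARK2 arrays read 530.3 and 516. Probe set 1569052_at, between 36.7 and 69.2 on all arrays, was at 0.32 (adjusted p 0.303). The IGF2R probe sets differed from each other by at most 0.11 (exact two-sided permutation p 0.80).

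**Figure D2:**
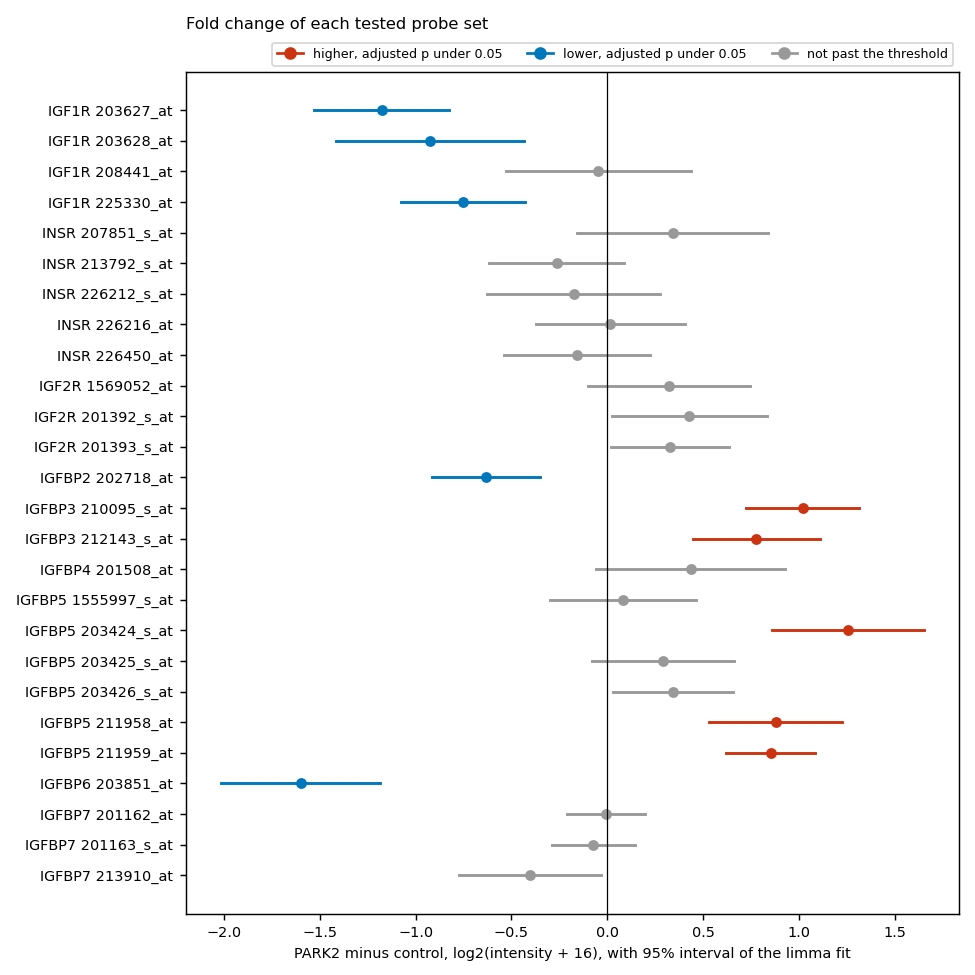
For each of the 26 tested probe sets the point is the PARK2 minus control difference in log2(intensity + 16) and the bar its 95% interval from the limma fit, in red where higher, blue where lower and grey where not past an adjusted p of 0.05. The 5 blue bars belong to IGF1R, IGFBP2 and IGFBP6, the 5 red ones to IGFBP3 and IGFBP5, and the INSR bars all include 0.

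Among the binding proteins, IGFBP6 fell the furthest of all members tested. IGFBP6 binds IGF2 with a marked preference over IGF1 and is known as an inhibitor of IGF2 action. Its only probe set, 203851_at, read 556, 380.4 and 312 in control cells and 152, 113 and 107 in PARK2 cells. The mean went from 416 ± 126 to 124 ± 24.7 (SD, n = 3), a log2 difference of -1.60 (SE 0.20, limma's adjusted p 1.3e-05). Replicate 1 was the highest array of both groups, and the groups stayed well apart.

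IGFBP2, a binding protein abundant in glioma, fell too. Its only probe set, 202718_at, read 3844, 3557 and 2916 in control cells and 2469, 1883 and 2284 in PARK2 cells. That was a change from 3439 ± 475 to 2212 ± 299.7 and a log2 difference of -0.63 (SE 0.13, limma's adjusted p 0.00238). All PARK2 arrays lay below all control arrays.

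IGFBP3, the main carrier of insulin-like growth factors in the blood, rose on both of its probe sets. Probe set 210095_s_at read 846, 652 and 634 in control cells and 1497, 1453 and 1389.5 in PARK2 cells, a log2 difference of 1.02 (SE 0.14, limma's adjusted p 4.0e-05). Probe set 212143_s_at read 182, 186 and 187 in control cells and 347, 279.6 and 365 in PARK2 cells, a log2 difference of 0.78 (SE 0.16, adjusted p 0.00156). No PARK2 array reached down to the control range on either, and the probe sets differed from each other by 0.24 (exact two-sided permutation p 0.30).

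IGFBP5, which binds to the extracellular matrix, rose on 3 of its 6 probe sets. Probe set 211959_at read 4236, 3378 and 3538 in control cells and 6666, 6966 and 6453 in PARK2 cells, a change from 3718 ± 456 to 6695 ± 258 and a log2 difference of 0.85 (SE 0.11, limma's adjusted p 2.4e-05). Probe set 211958_at moved by nearly the same amount, from 268, 189 and 193 to 412, 435 and 376 (0.88, SE 0.16, adjusted p 8.3e-04). On both, the lowest PARK2 array was above the highest control array.

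Probe set 203424_s_at gave the largest rise of any member. It read 922, 1333 and 1068 in control cells and 1852, 3539 and 2804 in PARK2 cells (1.26, SE 0.19, limma's adjusted p 1.0e-04). Replicate 1 was the lowest array and replicate 2 the highest of each group.

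The remaining IGFBP5 probe sets did not pass. Probe set 203426_s_at had groups that did not overlap, 241 to 284 in control and 323 to 351 in PARK2 cells, but a log2 difference of only 0.34 (adjusted p 0.119). It passed under quantile normalization (0.36, adjusted p 0.0477) and trimmed mean scaling (0.37, adjusted p 0.0446). Probe sets 203425_s_at (0.29, adjusted p 0.283) and 1555997_s_at (0.08, 95% interval -0.30 to 0.47, adjusted p 0.818) had overlapping groups.

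The differences of the 6 IGFBP5 probe sets ran from 0.08 to 1.26, and whether they differ from each other could not be settled with 3 arrays per group. Within arrays, 203424_s_at and 1555997_s_at differed by 1.17 more in PARK2 than in control cells, with no overlap between the groups (exact two-sided permutation p 0.10, the smallest possible, and 0.15 adjusted over 6 genes). As the mean of its probe sets IGFBP5 was at 0.62 (limma's adjusted p 0.00137). Which part of the transcript each probe set reads was not analysed here.

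IGFBP7 and IGFBP4 did not pass. IGFBP7 binds insulin-like growth factors only weakly and is a secreted protein of vessel walls and matrix. Its probe sets 201162_at and 201163_s_at were bright and steady, the former at 11068, 9897 and 9213 in control and 10301, 9840.2 and 9803 in PARK2 cells, with differences of -0.01 (95% interval -0.21 to 0.20) and -0.07 (-0.29 to 0.14). The groups overlapped on both, and the intervals leave room only for small changes on these probe sets.

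The third IGFBP7 probe set, 213910_at, read 199, 173 and 128 in control cells and 124, 117 and 119 in PARK2 cells. Its groups did not overlap, though control replicate 3 was close to the PARK2 arrays, and its difference was -0.40 (limma's adjusted p 0.125). Without that control array it was -0.56 (adjusted p 0.0283), and under trimmed mean scaling -0.38 (adjusted p 0.0494). IGFBP4, an inhibitory binding protein read by 201508_at, lay between 19.3 and 65.9 on all arrays and was at 0.44 (95% interval -0.06 to 0.93, adjusted p 0.221).

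Transcripts of the other ligands were at the bottom of the range. The 5 probe sets of IGF1 read from 0.64 to 19.9 and that of insulin, INS, from 0.68 to 5.34 over the 6 arrays, and none passed the filter. The same held for IGFBP1, from 0.32 to 10.97. IGFALS, the partner of IGFBP3 in the circulating complex, read from 7.84 to 21.4 and was at -0.17 (limma's adjusted p 0.676 over genes). No PARK2 minus control difference can be read for IGF1, INS or IGFBP1 at these levels.

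Of the proteins that bind IGF2 mRNA, IGF2BP3, an oncofetal RNA-binding protein, rose. Its probe set 203820_s_at read 196, 184 and 164 in control cells and 459.5, 491 and 491 in PARK2 cells, a log2 difference of 1.33 (SE 0.16, limma's adjusted p 1.6e-10 over 13720 genes). In the fit over all probe sets, where 203820_s_at had an adjusted p of 3.9e-06, 3 of the 4 tested IGF2BP3 probe sets were higher, at 1.55, 1.33 and 0.72. There 1569033_at, between 7.37 and 18.7, was at -0.20 (adjusted p 0.591). In a separate fit of 1 mean per gene, the mean of the 4 was at 0.85 (adjusted p 6.6e-05). IGF2BP2 was at -0.18 (95% interval -0.45 to 0.10, fit over all probe sets), and IGF2BP1 did not pass the filter, with values from 0.51 to 7.39.

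Around the members, 93 further genes in 8 lists were read 1 probe set per gene, the brightest, and 79 were tested. Of these 15 rose and 10 fell, where 13.3% of all 13720 genes rose and 15.6% fell, 28.8% in all. Counted with the members, 17 genes rose and 13 fell, but 29 and 15 under quantile normalization and 29 and 16 with array weights. The median difference of the 79 was 0.02, against -0.0026 over all genes. The shares over all genes apply to each list count below, and no list was tested against them. Among the members the same fit gave 2 higher, 3 lower and 4 not past. Its adjusted p-values, used for the lists, cannot be set beside those given for the members above. For IGFBP6 203851_at limma's adjusted p was 1.1e-11 in this fit and 1.3e-05 in the fit over all probe sets.

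Of 7 tested genes of proteases that cut IGFBPs and of their inhibitors, 3 rose, all of them proteases, and 0 fell. ADAM12, a metalloprotease that cuts IGFBP3 and IGFBP5, read 783, 595 and 593 in control cells and 1538, 1439 and 1440.3 in PARK2 cells (1.16, SE 0.14, limma's adjusted p 6.5e-10), and 4 of its 5 tested probe sets were higher. PAPPA, which cuts IGFBP4 and IGFBP5, read 83.9, 77.4 and 54.9 against 171, 149 and 155 (1.00, SE 0.18, adjusted p 5.7e-06).

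PAPPA had 4 of 7 tested probe sets higher, and its mean over them was 0.62 (adjusted p 0.00401). HTRA1, a secreted serine protease with an IGFBP-like domain, was at 0.47 (adjusted p 0.0151). It did not pass in the fit over all probe sets, and its call was also lost without control replicate 3 (0.25, adjusted p 0.209) and without PARK2 replicate 1 (0.39, adjusted p 0.110). The stanniocalcin genes STC1 (0.35, adjusted p 0.0507) and STC2 (0.27), whose products inhibit PAPPA, did not pass.

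Of 12 tested receptor substrates and adaptors 1 rose and 1 fell, where 28.8% of all genes passed. IRS2, a docking protein of both receptors, read 1102, 949 and 923 in control cells and 1333, 1361 and 1277 in PARK2 cells (0.41, SE 0.14, limma's adjusted p 0.0163), and the adaptor SH2B2 was at -0.58 (adjusted p 0.0135). The IRS2 call was lost without control replicate 2 (adjusted p 0.108) and without PARK2 replicate 1, 2 or 3 (0.0614, 0.109 and 0.0568). That of SH2B2 was lost without control replicate 1 or 2 (0.0823 and 0.0644) and without PARK2 replicate 1 or 2 (0.0661 and 0.0696).

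Of 11 tested phosphatases and feedback inhibitors, which damp receptor signalling, 2 rose and 5 fell. SOCS2, a cytokine-induced inhibitor that also binds IGF1R, read 1634, 1407 and 1411 in control cells and 392, 349 and 382 in PARK2 cells, a log2 difference of -1.94 (SE 0.14, limma's adjusted p 3.1e-18). The receptor phosphatase PTPRF went from 1298 ± 115 to 557 ± 69.4 (-1.20, adjusted p 3.2e-10).

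PHLPP1, which removes an activating phosphate from AKT, went from 152 ± 40.1 to 61.3 ± 10.9 (-1.10, SE 0.18, limma's adjusted p 1.6e-06). SOCS2 was lower on 2 of its 3 tested probe sets and PTPRF on 3 of 4. PARK2 arrays lay below control arrays for SOCS2, PTPRF and PHLPP1 alike. PTPN2, a phosphatase of receptor kinases, was at -0.86 (adjusted p 4.0e-06) on its brightest probe set but at -0.34 (adjusted p 0.0923) as the mean of 6, and SOCS3, which rose by this measure (0.68, adjusted p 4.7e-04), was at 0.33 (adjusted p 0.111) as the mean of 3.

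Of 18 tested genes of the PI3K-AKT-mTOR relay 1 was higher and 0 were lower, where 28.8% of all genes passed. That gene was PIK3R3, a regulatory subunit of PI3K, which read 146, 103 and 99.3 in control cells and 254, 279 and 287 in PARK2 cells (1.15, SE 0.17, limma's adjusted p 8.6e-08). Of 11 tested FOXO factors and targets 5 rose and 1 fell. Of the 5, KLHL24 (0.43, adjusted p 0.0375) was lost with the replicate as a block (adjusted p 0.0825) and was at 0.08 (adjusted p 0.782) as the mean of its 5 tested probe sets. In the fit over all probe sets 0 of these 5 KLHL24 probe sets were higher. FOXO factors are held inactive by AKT, and among their targets TXNIP was at 1.49 (adjusted p 2.5e-14), the cell cycle inhibitor CDKN1B at 0.71 (adjusted p 3.5e-05) and PDK4, a brake on pyruvate oxidation, at 0.70 (adjusted p 0.0202). The 1 target that fell was SESN3, at -0.40 (adjusted p 0.0261) with overlapping groups. SESN3 was lower on 4 of its 6 tested probe sets and at -0.62 (adjusted p 0.00331) as their mean. The SESN3 call was lost without control replicate 1 and without PARK2 replicate 1 or 3.

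The control mean of PDK4, 6.89, lay under the filter floor, so PDK4 passed the filter only through the PARK2 arrays and its place among the 5 that rose is no support for that count. PDK4 read 9.88, 6.07 and 4.73 in control and 19.1, 19.8 and 24.6 in PARK2 cells, and at such levels its difference moved from 0.26 with a pseudocount of 64 to 1.53 with a pseudocount of 1. Its call was lost without control replicate 2 or 3 (adjusted p 0.0543 and 0.0588) and without PARK2 replicate 3 (0.0981). The FOXO genes themselves, FOXO1 (0.34), FOXO3 (0.30) and FOXO4 (0.05), did not pass.

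Of 17 tested partners of IGF2R in lysosomal sorting 2 rose and 3 fell. With the replicate as a block 1 of the 2 rises, that of GGA1, a sorting adaptor, was lost (0.45, adjusted p 0.0198 without and 0.0608 with the block). The sorting nexin SNX1 went from 558 ± 105 to 299 ± 24.2 (-0.85, SE 0.16, limma's adjusted p 1.2e-05) and was lower on all 3 of its tested probe sets. VPS26A, a retromer subunit that helps return IGF2R from endosomes, was at -0.51 (adjusted p 0.00141). PLAUR, the urokinase receptor, was at 0.46 (adjusted p 0.0152) on its brightest probe set and at 0.27 (adjusted p 0.189) as the mean of 3. The PLAUR call was also lost without control replicate 2 or 3 (0.0551 and 0.126) and without PARK2 replicate 1 or 3 (0.0592 and 0.0981).

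**Figure D3:**
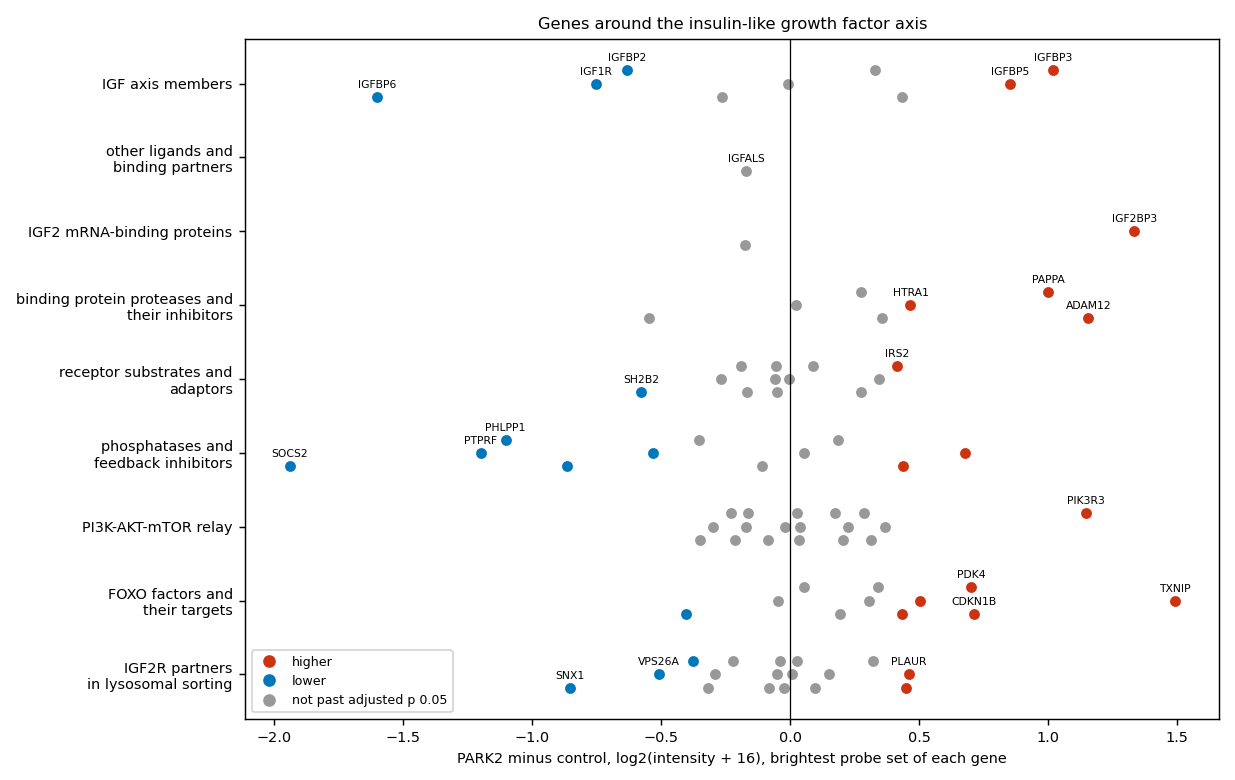
Each point is a tested gene, placed by its PARK2 minus control difference in log2(intensity + 16) on its brightest probe set and grouped by list on the y axis (vertical offsets only separate points), in red where higher, blue where lower and grey where not past an adjusted p of 0.05. SOCS2 (-1.94) and IGFBP6 (-1.60) lie furthest to the left and TXNIP (1.49) and IGF2BP3 (1.33) furthest to the right.

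Along the chromosomes, neighbours of some members moved in the same direction as the member, a comparison added after the data were seen. Over all genes tested 15.6% fell and 13.3% rose. Of the 20 tested genes closest to IGF1R on chromosome 15, 10 on each side, 9 fell and 1 rose, with a median of -0.42. IGF1R itself, at -0.75, was 0.33 below that median, and 5 of the neighbours lay further down. Of the 20 closest to IGFBP3 on chromosome 7, 10 rose and 0 fell, with a median of 0.41, and IGFBP3 at 1.02 was 0.61 above it.

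The neighbours of the other members that moved had medians near 0. The median was 0.04 around IGFBP2, where 5 of 20 rose and 1 fell, and -0.01 around IGFBP5, where 4 rose and 2 fell, windows that share most of their genes. IGFBP5 is itself among the rises around IGFBP2, and IGFBP2 among the falls around IGFBP5. The median was -0.01 around IGFBP6, where 0 rose and 1 fell. IGFBP2 and IGFBP5 are next to each other on chromosome 2, with 0 annotated genes between them, and moved in opposite directions (-0.63 and 0.85). The part of the chromosome neighbourhood in the differences of IGF1R and IGFBP3 was not tested.

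**Figure D4:**
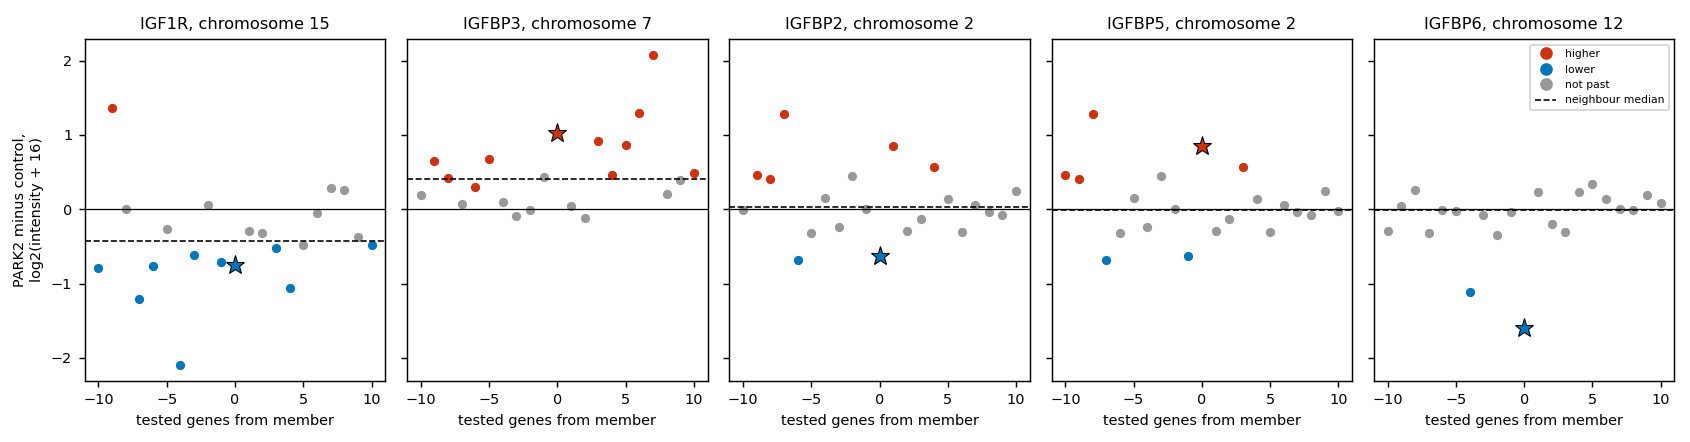
Each panel shows a member (star) and the 10 tested genes on either side of it (circles) in their order along the chromosome, with the PARK2 minus control difference in log2(intensity + 16) on the y axis and a dashed line at the median of the neighbours. The dashed line lies at -0.42 around IGF1R and at 0.41 around IGFBP3, and between -0.01 and 0.04 around IGFBP2, IGFBP5 and IGFBP6.

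The genes whose profile over the 6 arrays was most like that of a member were found by the root mean square difference of log2 values, each centred on its own mean, among 13719 genes. For IGFBP5 on 203424_s_at these were PCDH17 (0.13), DOCK3 (0.14) and FRY (0.17). For IGFBP6 they were VSTM2L (0.14), TIMM17B (0.14) and DHRS3 (0.15). The control means of DOCK3 (3.86) and FRY (4.84) and the PARK2 mean of VSTM2L (3.29) lay under the filter floor. With 3 arrays per group these profiles are set mainly by the difference between the groups.

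The 6 arrays had median intensities between 16.2 and 19.3, and their means after trimming 2% lay between 137 and 168. Of 8 astrocyte and glioma markers 7 were tested, while CHI3L1 did not pass the filter. VIM, CD44 and NES were bright in both lines. SOX2 was higher in PARK2 cells in the fit of 1 probe set per gene (0.30, limma's adjusted p 0.0378). That probe set did not pass in the fit over all probe sets (adjusted p 0.0599), where 0 of 4 SOX2 probe sets were higher. As the mean of the 4, SOX2 did not pass either (0.27, adjusted p 0.228). On its brightest probe set the GFAP mean went from 250.99 to 362 (0.53, but -0.03 as the mean of 2). S100B was lower in PARK2 cells (-1.39). Summed over the list the markers read 23460 to 27690 in control and 26140 to 26740 in PARK2 cells. Of 4 neuron markers tested 3 were higher in PARK2 cells, namely SYT1 (2.50), GAD1 (2.28) and SNAP25 (1.26). SLC17A7 did not pass (-0.14, adjusted p 0.733), and RBFOX3 was under the filter. The 5 listed summed to 63.9 to 76.8 in control and 348 to 411 in PARK2 cells. Most of the PARK2 sum came from SYT1 (mean 13.7 in control and 152 in PARK2 cells) and GAD1 (16.4 and 139).

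Only 1 of 5 microglia and blood cell markers, 1 of 4 endothelial and 3 of 5 oligodendrocyte markers were tested, and 0 of these passed the threshold. The others on the array were under the filter. Sums over these lists, which include the genes under the filter, overlapped between the groups except for the endothelial ones (40.5 to 47.3 in control and 47.4 to 54.0 in PARK2 cells). Of the fibroblast and pericyte list COL1A2 was higher, and it made up most of the list's sum of 3548 to 4247 in control and 5069 to 5942 in PARK2 cells. COL1A1 (-0.32), DCN (-0.04) and PDGFRB (0.29) did not pass the threshold, and LUM did not pass the filter. What part the changed marker genes have in the results above was not tested. In bulk RNA, fewer cells that express a gene and less RNA per cell cannot be told apart.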

How the data were processed

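RNA of 3 control and 3 PARK2 samples was measured on Affymetrix arrays. Deposited intensities are on a linear scale, with a value for each probe set on each array, and the submitters' processing notes name GCOS and MAS5, while scaling and build are not given in the sources used here. Symbols came from the platform annotation: of 54675 probe sets, 62 controls were left out, 41091 had 1 symbol and 1801 several, and the latter were not used.

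The deposited intensities were analysed as log2(intensity + 16), and no further normalization was applied. Probe sets at or above the 40th percentile of mean log2 value (an intensity of 9.87) were fitted with limma 3.58.1 (R 4.3.3, empirical Bayes with an intensity trend, 4 residual degrees of freedom) and p-values adjusted by Benjamini-Hochberg over all of them, with 0.05 as threshold. One fit held all 26603 probe sets and was used for the members, and another the brightest probe set of each of 13720 genes and was used for the pathway lists. The fit was tested on simulated data of 26603 probe sets, where 19.4% of 67 1.5-fold, 83.6% of 67 2-fold and 100% of 66 4-fold changes were recovered. Of the unchanged probe sets 6 passed. Noise was drawn independently for each array from the spread that limma fitted. A far smaller share of probe sets was changed than the 20.4% called in the real data. These recovery shares are therefore a check of the fit and not its power on these arrays. Precision is limited by the number of arrays.

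Replicate numbers are shared between the groups, and deviations from the group means of samples with the same number correlated at 0.40, 0.18 and 0.13 over all probe sets tested (0.168, 0.045 and 0.065 over 1 probe set per gene), against -0.28 to 0.16 for other numbers. The value of 0.13 lay within the range of other numbers, so whether the numbers pair the samples was not settled. The main fit left the replicate out, and a fit with the replicate as a block was an alternative. Other alternatives were other pseudocounts, filters, scalings, weights and thresholds, no intensity trend, the mean of a gene's probe sets, an exact permutation test and leaving out each array.

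All member probe sets are described, with the 3 largest changes past the threshold in each pathway list (1 by smallest p where none passed), all other ligands and IGF2 mRNA-binding proteins, and the 3 genes most like the member probe set that rose most and the one that fell most. KLHL24, SESN3, GGA1, PTPN2, SOCS3, STC1, STC2 and the FOXO genes were named outside this rule after their values were seen. The members and lists were chosen with earlier results of these data known. Some listed genes were not analysed here.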

Additional observations from a re-analysis of the deposited data

How the results depend on the processing

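With 3 arrays per group an exact permutation test of single probe sets cannot give a p below 0.1, so the calls rest on the spread that limma pools over probe sets. Of the 26 tested member probe sets, 5 were higher in the main setting and 5 to 7 under the alternatives (7 under quantile normalization and under trimmed mean scaling), and 5 were lower and 4 to 6 under them, 4 without a filter. No member changed direction after a call. The call of IGF1R 203628_at was lost without the filter (adjusted p 0.0661). With the replicate as a block 2569 probe sets were higher and 3202 lower, against 2422 and 2994, and all 10 member calls were kept, while KLHL24 and GGA1 were lost among the 30 genes called in the members and pathway lists. Of these 30, 24 were kept without the intensity trend, 25 without a filter and 21 to 28 when an array was left out, and under quantile normalization 29 were called higher and 15 lower in the same lists, against 17 and 13. Over all probe sets the higher calls were 3706 under quantile normalization, 3735 under trimmed mean scaling, 4316 with array weights and 1433 at an adjusted p under 0.01, and ran from 1529 to 3635 when an array was left out, lowest without PARK2 replicate 3 and highest without control replicate 1. Lower calls were 3799 under quantile normalization, 3647 under trimmed mean scaling, 3913 with array weights and 1733 at 0.01. They ran from 2166 to 3175 when an array was left out. Over 1 probe set per gene, 3075 genes were higher with array weights, against 1818, and 1225 to 2799 when an array was left out, the latter without control replicate 1; the cause was not tested. Less the median of their chromosome neighbours, an alternative chosen after seeing the data, IGF1R was at -0.33 and IGFBP3 at 0.61.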
